A study of Mus musculus with 6 samples.

Results

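The AP-1 and immediate early genes were examined in macrophages sorted from the bone of ovariectomised and sham-operated mice. The set was defined by name and held 10 genes, namely Fos, Fosb, Fosl1, Fosl2, Jun, Junb, Jund, Atf3, Egr1 and Ier2. Of these, 9 were among the 11815 genes with listed transcripts, and all 9 were among the 8185 genes whose level was high enough to be tested. The RNA level of Fosb was not analysed here, and only its promoter was searched. Female BALB/c mice aged 10 weeks had both ovaries removed (OVX) or a sham operation, and their femurs and vertebrae were taken 4 weeks later. The bone was cleared of periosteum, the femoral marrow was flushed out, and the pieces were digested with trypsin and then with collagenase D overnight before cells were sorted on CD11b together with F4/80 or CD68. RNA was sequenced in 3 libraries per group from bone cells of 20 mice harvested per condition, and the sources used here do not say how the animals were divided among the libraries. Every p-value therefore reflects no more than library-to-library spread, which may be technical.

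AP-1 is a dimer of a Fos family protein and a Jun family protein, or of related leucine zipper proteins such as ATF3, that binds DNA through a basic region. Immediate early genes are transcribed soon after a stimulus without the need for new protein, and in macrophages they respond to growth factors, bacterial products and stress. In mice, c-Fos is required for myeloid precursors to become osteoclasts, and warm enzymatic digestion of tissue is a known trigger of the same genes. All 6 libraries came from digested bone and no undigested library was analysed here, so RNA present in the intact tissue and RNA made during digestion cannot be told apart.

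The proximal promoters are shown because the inducible members are known to be switched on through short elements near the start site. RefSeq promoters on GRCm38.p6, which is the C57BL/6J reference and not BALB/c, were matched for 7 of the 10 genes. None was matched for Fosl1, Egr1 or Ier2, so these were not searched. The sequences below are the 250 bases that end just before the start site, 5′ to 3′ on the gene's own strand. Capitals mark TGACG, which is the CGTCA core of a cyclic AMP response element on the other strand, and TATAAA in Fos. They mark TGACATCA in Jun, and TTACGTCA, which reads TGACGTAA on the other strand, in Atf3.
Fos (chr12:85473640-85473889, plus strand): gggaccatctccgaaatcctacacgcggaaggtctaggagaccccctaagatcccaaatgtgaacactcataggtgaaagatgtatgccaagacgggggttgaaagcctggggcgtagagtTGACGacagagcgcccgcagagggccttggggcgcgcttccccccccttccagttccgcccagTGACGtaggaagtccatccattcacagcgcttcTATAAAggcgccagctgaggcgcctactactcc
Jun (chr4:95052223-95052472, minus strand): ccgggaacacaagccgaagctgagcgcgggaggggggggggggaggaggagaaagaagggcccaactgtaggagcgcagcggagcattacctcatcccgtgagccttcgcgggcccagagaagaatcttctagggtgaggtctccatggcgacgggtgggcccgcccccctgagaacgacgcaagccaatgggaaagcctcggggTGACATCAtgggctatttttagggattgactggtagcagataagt
Atf3 (chr1:191183334-191183583, minus strand): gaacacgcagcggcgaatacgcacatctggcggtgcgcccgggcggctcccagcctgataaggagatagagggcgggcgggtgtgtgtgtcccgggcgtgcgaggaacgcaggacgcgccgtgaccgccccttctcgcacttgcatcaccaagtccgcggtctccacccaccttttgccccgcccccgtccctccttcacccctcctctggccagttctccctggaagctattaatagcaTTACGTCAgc

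Both strands of the matched promoters were searched, and the same search was run over 32851 RefSeq promoters of the same length. The AP-1 element TGACTCA was in 0 of the 7 matched members and in 4.46% of all promoters. The full cyclic AMP element TGACGTCA was in 0 of 7 and in 1.55% of all promoters, and the CArG box, the binding site of serum response factor, was in 0 of 7 and in 1.47%. TGACATCA was in 1 member, Jun, and in 2.93% of all promoters. The remaining motifs were chosen after the sequences were seen. CGTCA, which is contained in TGACGTCA and overlaps TGACGTAA, was in 4 members (Fos, Fosb, Junb and Atf3) and in 17.8% of all promoters. TGACGTAA was in Atf3 and in 0.447% of all promoters, while TATAAA was in Fos and in 12.4%. These matches describe letters in this window only, and an element further from the start site would be missed.

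Transcript abundances (TPM, which correct for transcript length and for the size of the library) were summed per gene over the listed transcripts and put on a common scale across libraries. Levels are given as such scaled TPM and can be compared between genes. OVX replicate 3 stood apart. Its listed transcripts held 66.3% of the full TPM scale against 80.5% to 83.0% in the other libraries, and limma gave it a library weight of 0.171 against 0.913 to 2.65. Of the markers that define a macrophage, Csf1r, the receptor for macrophage colony stimulating factor, was listed at 0 in every library. The 11 listed macrophage markers of 19 summed to 1853 to 1897 scaled TPM in sham and 2328 to 2599 in OVX. Among the most abundant of them, Fcer1g (190 to 222 in sham, 325 to 561 in OVX) and Lgals3 (470 to 529 and 581 to 646) did not overlap. Cd14 (669 to 772 and 589 to 913) and Lyz2 (266 to 283 and 265 to 370) did. The 8 listed neutrophil markers of 13 summed to 69769 to 88873 in sham and 133495 to 141061 in OVX. Most of that sum was S100a9 (36162 to 46066 in sham, 54914 to 75303 in OVX) and S100a8 (29937 to 39104 and 56322 to 75108), both without overlap. Ngp (2375 to 2433 and 2626 to 5230) did not overlap either. Lcn2 (1135 to 1190 and 771 to 1875) overlapped and was lowest in OVX replicate 3. The 12 stromal markers summed to 18150 to 18757 in sham and 11775 to 19301 in OVX, with OVX replicate 3 lowest. The 10 skeletal muscle markers summed to 236 to 256 in sham and 155 to 206 in OVX, and the 14 chondrocyte markers to 1271 to 1454 and 895 to 1278. The muscle markers did not move together. The most abundant, Tnnc2, was below all sham libraries in OVX replicates 1 and 2 and above them in OVX replicate 3. Mylpf overlapped (28.5 to 34.7 in sham, 17.6 to 29.7 in OVX), while Acta1 and Tnni2 were below sham in all OVX libraries. The chondrocyte markers did not move together either. The most abundant, Chad and Comp, were below sham in all OVX libraries. Col2a1 (68.2 to 70.6 in sham, 118 to 123 in OVX) and Sox9 (39.4 to 40.8 and 43.6 to 73.2) were above. The 6 listed osteoblast markers of 11 summed to 49.9 in OVX replicate 3 against 19.16 to 25.002 in the other libraries, and the 3 listed osteoclast markers of 8 to 46.1 against 86.1 to 107. Most of that osteoblast sum was Ibsp alone (46.98 in OVX replicate 3), while Alpl was lowest there (0.745) and Runx2 highest (2.19). Most of the osteoclast sum was Ctsk, at 59.8 to 71.7 in sham and at 83.0, 73.3 and 33.4 in OVX. The other osteoclast markers, Acp5 (21.4 to 24.4 in sham, 8.95 to 20.4 in OVX) and Itgb3 (4.92 to 5.85 and 3.37 to 3.76), were below sham in all OVX libraries. Of 8 endothelial, 10 B and T cell and 8 erythroid markers looked up, 0 had a listed transcript, so these cells were not analysed here. The part of these other cells in the results below was not tested, and fewer cells of a type cannot be told apart from less RNA per cell.

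None of the 9 members differed between OVX and sham at an adjusted p of 0.05 by limma, and 1 of them, Egr1, was lower at an unadjusted p of 0.05. Among all 8185 genes tested, 0.0122% were called higher, 0% were called lower, and at the unadjusted threshold 3.38% were lower and 3.62% higher. The log2 difference, OVX minus sham on log2(scaled TPM + 1), was below 0 for 8 members and above 0 for 1, against 50.9% and 49.1% of all genes. Its median was -0.17 over the members and -0.01 over all genes. Without OVX replicate 3 the median over the members was -0.02, with 3 members above 0 (Fos, Fosl2 and Junb). Egr1 was the 1 member whose 3 OVX libraries all lay below the sham libraries, and Fosl2 the 1 whose OVX libraries all lay above, where 7.6% and 7.54% of all genes did so.

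**Figure D1:**
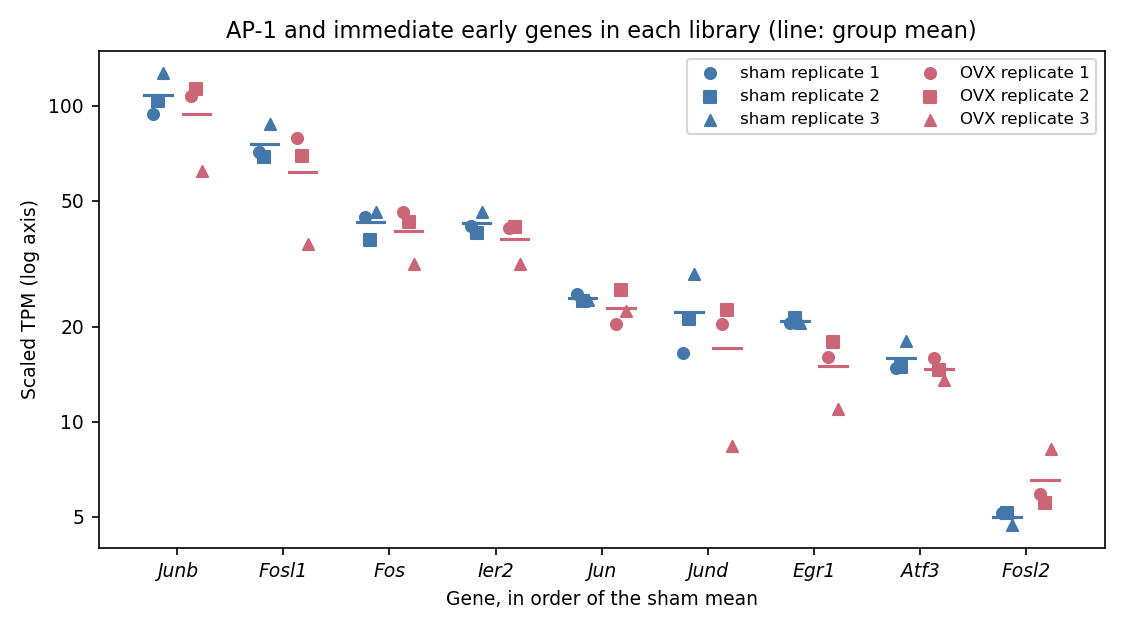
Scaled TPM (log axis) of the 9 listed members in each of the 6 libraries, with sham in blue, OVX in red, a symbol for each replicate number and a line at each group mean. OVX replicate 3 is the lowest library for 7 of the 9 genes, and only the Egr1 and Fosl2 libraries separate by group.

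Among the Fos family, Fos (chromosome 12, 85473890 to 85477273, plus strand, GRCm38 with GENCODE M21) encodes c-Fos, which must pair with a Jun protein to bind DNA. Fos measured 44.5, 37.7 and 46.2 scaled TPM in sham replicates 1, 2 and 3 against 46.1, 42.7 and 31.6 in the same order in OVX. OVX replicates 1 and 2 lay within the sham range, and replicate 3 was the lowest library of all. On the log2 scale OVX minus sham was -0.10 ± 0.18 (SE), with a limma adjusted p = 0.879.

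Fosl1 (chromosome 19, 5447547 to 5455946, plus strand) encodes Fra-1, a Fos relative that lacks the strong activation domain of c-Fos. As the most abundant Fos family gene it measured 71.2, 68.9 and 87.7 scaled TPM in the sham libraries against 79.4, 69.3 and 36.6 in the OVX libraries. OVX replicates 1 and 2 lay within the sham range, and replicate 3 was 46.9% below the lowest other library. Its log2 difference was -0.36 ± 0.29 (limma adjusted p = 0.781) with all libraries and -0.02 without OVX replicate 3.

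Fosl2 (chromosome 5, 32135801 to 32157842, plus strand) encodes Fra-2, a regulator of bone cell differentiation in mice. As the least abundant member it measured 5.13, 5.15 and 4.70 scaled TPM in the sham libraries against 5.91, 5.50 and 8.19 in the OVX libraries. All 3 OVX libraries were above all 3 sham libraries, with replicate 3 highest. OVX minus sham came to 0.31 ± 0.18 (95% interval -0.11 to 0.74, limma adjusted p = 0.733), and 0.16 without OVX replicate 3. The sum of the 3 listed Fos family genes measured 120.9, 111.7 and 138.6 scaled TPM in the sham libraries against 131.4, 117.5 and 76.4 in the OVX libraries, where replicate 3 alone lay below the sham range.

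In the Jun family, Jun (chromosome 4, 95049034 to 95052222, minus strand) encodes c-Jun, which can also bind DNA as a dimer with itself. It measured 25.4, 24.0 and 24.3 scaled TPM in the sham libraries against 20.5, 26.04 and 22.4 in the OVX libraries. The OVX libraries lay on both sides of the narrow sham range, and here the lowest was replicate 1. On the log2 scale OVX minus sham was -0.10 ± 0.14 (limma adjusted p = 0.858).

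Junb (chromosome 8, 84974484 to 84978718, minus strand) encodes JunB, a weaker activator that can oppose c-Jun. With the highest level of all members it measured 94.3, 103.4 and 126.8 scaled TPM in the sham libraries against 107.8, 112.8 and 62.3 in the OVX libraries. OVX replicates 1 and 2 were inside the sham range and replicate 3 was 34.0% below the lowest other library. Its log2 difference was -0.23 ± 0.25 (limma adjusted p = 0.821), and 0.04 without OVX replicate 3.

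Jund (chromosome 8, 70698949 to 70700616, plus strand) encodes JunD, the Jun protein that is made more steadily and depends least on a stimulus. It measured 16.5, 21.1 and 29.3 scaled TPM in the sham libraries against 20.4, 22.6 and 8.36 in the OVX libraries. Relative to its mean it varied most of the members within the sham group, and OVX replicate 3 was 49.4% below the lowest other library. OVX minus sham came to -0.44 ± 0.38 (limma adjusted p = 0.787), and -0.02 without OVX replicate 3. The 3 Jun family genes together measured 136.3, 148.5 and 180.4 scaled TPM in the sham libraries against 148.7, 161.4 and 93.0 in the OVX libraries, so that replicates 1 and 2 lay inside the sham range.

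**Figure D2:**
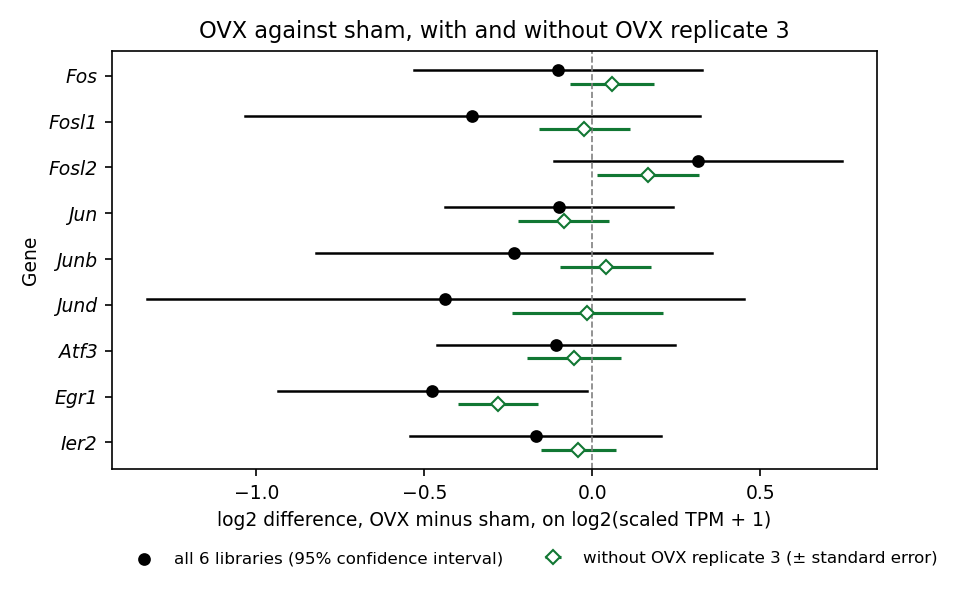
Log2 difference of each member, OVX minus sham on log2(scaled TPM + 1), from all 6 libraries with the 95% confidence interval (black) and without OVX replicate 3 with the standard error (green). With all libraries 8 of 9 values are below 0 and the Egr1 interval, -0.94 to -0.02, alone excludes 0, while without OVX replicate 3 the median is -0.02.

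Egr1 (chromosome 18, 34859823 to 34864984, plus strand) encodes a zinc finger transcription factor that is induced by serum and growth factors and is tied to monocyte differentiation. It measured 20.6, 21.3 and 20.5 scaled TPM in the sham libraries against 16.0, 17.9 and 11.0 in the OVX libraries. All 3 OVX libraries were below all 3 sham libraries, and the sham libraries lay close together, at 20.8 ± 0.48 (SD, n = 3) against 14.95 ± 3.60 in OVX. On the log2 scale OVX minus sham was -0.48 ± 0.20 (95% interval -0.94 to -0.02), with a limma adjusted p = 0.701. Without OVX replicate 3 it was -0.28, with a limma adjusted p = 0.535. The unadjusted threshold of 0.05 was passed under 11 of 18 alternatives. It was missed with the replicate block, with library weights, and with 5 of the 6 libraries left out in turn (each sham library and OVX replicates 1 and 3).

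Ratios within a library do not depend on the scaling, and Egr1 was also set against other members in this way. Egr1 to Fos measured 0.462, 0.566 and 0.443 in the sham libraries against 0.346, 0.420 and 0.347 in the OVX libraries. Egr1 to Ier2 measured 0.492, 0.538 and 0.443 in the sham libraries against 0.390, 0.433 and 0.348 in the OVX libraries, and Egr1 to Jun measured 0.808, 0.888 and 0.843 in the sham libraries against 0.781, 0.689 and 0.488 in the OVX libraries. The OVX libraries were below the sham libraries in these 3 ratios. Of the 8 ratios of Egr1 to another member, 4 had OVX wholly below sham (to Fos, Ier2, Jun and Fosl2) and 4 overlapped (to Junb, Jund, Fosl1 and Atf3). Egr1 to Junb, for example, measured 0.218, 0.206 and 0.161 in the sham libraries against 0.148, 0.159 and 0.176 in the OVX libraries. The ratios share the Egr1 values, which were already lower in all OVX libraries, and were not tested. The ratio to Fosl2 could only lie below sham, because all OVX libraries of Fosl2 lay above sham. No such count was made for ratios of other genes, so there is no background share to set beside it.

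Egr1 is the 1 member with more than 1 listed transcript. The transcript with 3 exons measured 18.9, 18.6 and 18.2 scaled TPM in the sham libraries against 12.5, 15.9 and 8.58 in the OVX libraries, again without overlap. The transcript with 2 exons measured 1.70, 2.78 and 2.31 in the sham libraries against 3.48, 2.07 and 2.37 in the OVX libraries, where the groups overlapped. The sources used here do not say how reads were divided between the transcripts, so the split between them is uncertain.

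Atf3 (chromosome 1, 191170296 to 191218039, minus strand) encodes a stress-induced leucine zipper protein that restrains inflammatory genes in macrophages. It measured 14.8, 14.9 and 18.03 scaled TPM in the sham libraries against 15.9, 14.6 and 13.6 in the OVX libraries, with overlapping groups and OVX replicate 3 lowest. Its log2 difference was -0.11 ± 0.15 (limma adjusted p = 0.855). Ier2 (chromosome 8, 84661331 to 84662852, minus strand) encodes a small nuclear protein induced with the early response. It measured 41.7, 39.7 and 46.2 scaled TPM in the sham libraries against 41.0, 41.4 and 31.5 in the OVX libraries. Its first 2 OVX libraries lay within the sham range, replicate 3 was 20.6% below the lowest other library, and the log2 difference was -0.17 ± 0.16 (limma adjusted p = 0.800).

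By group mean the order was the same in sham and OVX, from Junb through Fosl1, Fos, Ier2, Jun, Jund, Egr1 and Atf3 to Fosl2. In sham the neighbours Fos and Ier2, Jun and Jund, and Jund and Egr1 overlapped in their libraries, and the other neighbours did not. In OVX only Ier2 and Jun, and Atf3 and Fosl2, were neighbours without overlap. Junb held 30.1% of the summed level of the 9 genes in sham and 30.05% in OVX, and Fosl1 held 21.2% and 19.5%. Summed over the 9 genes, the level measured 334.3, 336.1 and 403.7 scaled TPM in the sham libraries against 352.98, 352.87 and 225.4 in the OVX libraries. The groups overlapped, with sham replicate 3 highest and OVX replicate 3 lowest.

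The libraries at these ends stood apart for most members. OVX replicate 3 was the lowest library for 7 of 9 members against 32.9% of all genes, and sham replicate 3 was the highest for 6 of 9 against 17.02%. The log2 difference of OVX replicate 3 from the other OVX libraries had a median of -0.48 over the members and -0.01 over all genes. It moved with the GC content of the transcript, which was known for 8160 of 8185 genes. Over all genes the median was 0.18 below 45% GC, 0.08 from 45% to 50%, -0.09 from 50% to 55%, -0.28 from 55% to 60% and -0.36 at 60% or more. OVX replicate 2 minus replicate 1 stayed between -0.03 and 0.01 in the same bins, while sham replicate 3 against the other sham libraries went from -0.06 to 0.11.

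All 9 members have transcripts of at least 50% GC, which holds for 49.9% of all genes with a value. Jund (67.1% GC) was at -1.26 in OVX replicate 3 relative to the other OVX libraries, Junb (62.6%) at -0.82 and Fosl1 (58.5%) at -0.9998. Ier2 (60.9%) was at -0.38, and Jun (55.5%) was at only -0.04. Fos (51.9%) was at -0.48 and Egr1 (53.6%) at -0.58, and Fosl2 (53.1%) was at 0.45. Atf3 (52.2%) was at -0.16. In the 50% to 55% bin the middle 50% of all genes ran from -0.54 to 0.32, with Fos and Atf3 inside it, Egr1 just below and Fosl2 above. In the 55% to 60% bin it ran from -0.72 to 0.17, with Jun inside and Fosl1 below. At 60% or more it ran from -0.84 to 0.08, with Ier2 and Junb inside and Jund below. When the trend with GC content and length was removed from each library, an alternative chosen after seeing the data, the median OVX minus sham difference over the members was 0.01, with 5 above 0 and 4 below. In that fit Egr1 was at -0.38 (past the unadjusted threshold, limma adjusted p = 0.586) and Fosl2 at 0.32. The part of GC content in the group differences was not tested beyond that fit.

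**Figure D3:**
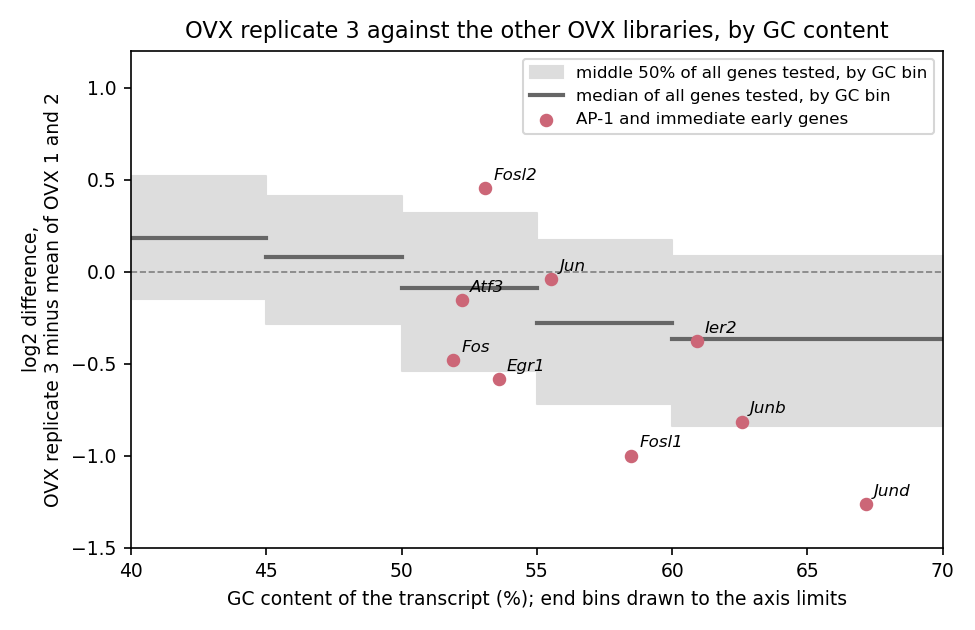
Log2 difference of OVX replicate 3 from the mean of OVX replicates 1 and 2 against the GC content of the transcript in percent, with the 9 members as points and the median and middle 50% of all genes per GC bin in grey. The median of all genes goes from 0.18 below 45% GC to -0.36 at 60% or more, and the members lie from -1.26 (Jund) to 0.45 (Fosl2).

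Genes with the most similar pattern over the 6 libraries were sought among 3212 genes averaging 10 scaled TPM or more, by the root mean square distance between centred log2 values. For Fosl1 they were Tubb6 (0.04), Pkm (0.05) and Thap7 (0.05), and for Junb they were Lrp1 (0.07), Trp53 (0.07) and P4hb (0.07). Like Fosl1 and Junb, each of these genes was lowest in OVX replicate 3 and highest in sham replicate 3. A choice by similarity over the same libraries favours such shared extremes. Shared regulation was not tested. The distance between Fosl1 and Junb was 0.13. For Egr1 the nearest genes were Nudc (0.05), Ppm1b (0.06) and Cmtm3 (0.07), and the nearest member was Ier2 (0.19).

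The genes around AP-1 were described by their counts and medians beside the median of -0.01 over all genes, and limma called 0 of them. Other leucine zipper partners had 21 tested genes, with 14 above 0, 7 below and a median of 0.14, and 2 of these (Batf and Batf3) passed the unadjusted threshold as lower, as did 3.38% of all genes. Batf, which pairs with Jun proteins in immune cells, measured 5.23, 6.26 and 6.20 scaled TPM in the sham libraries against 4.58, 3.51 and 3.55 in the OVX libraries, without overlap (log2 difference -0.50 ± 0.17, limma adjusted p = 0.671). Batf3, its relative in dendritic cells, was at 1.54, 2.62 and 1.27 in sham and was listed at 0, 0.914 and 0.806 in OVX, also without overlap. Among all genes, 7.6% had OVX wholly below sham.

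Other immediate early genes had 40 tested genes, with 21 above 0, 19 below and a median of 0.03. At an unadjusted p of 0.05, 3 were higher (Dusp5, Ccn1 and Zfp36l2) and 2 lower (Id3 and Klf10, the latter named after its values were seen), where 3.62% and 3.38% of all genes were. Dusp5, a phosphatase that inactivates ERK in the nucleus, measured 6.24, 7.02 and 7.04 scaled TPM in the sham libraries against 10.3, 9.93 and 11.7 in the OVX libraries (log2 difference 0.58 ± 0.15, limma adjusted p = 0.529). Its OVX libraries were all above the sham libraries. Id3, an inhibitor of helix-loop-helix factors, measured 213, 204 and 215 in the sham libraries against 151, 147 and 97.2 in the OVX libraries, where all OVX libraries were below (-0.70 ± 0.19, limma adjusted p = 0.557). Ier3, a survival gene chosen after its values were seen, measured 3214, 3117 and 3372 in the sham libraries against 3532, 3257 and 953 in the OVX libraries, so that OVX replicate 3 alone was low.

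AP-1 target genes had 28 tested genes, with 7 above 0 and 21 below (49.1% and 50.9% of all genes) and a median of -0.22, or -0.05 without OVX replicate 3. OVX replicate 3 was the lowest library for 19 of them, against 32.9% of all genes. Spp1, the bone matrix protein osteopontin, measured 6413, 6400 and 6451 scaled TPM in the sham libraries against 5310, 4992 and 4456 in the OVX libraries. Mmp14, a membrane collagenase, measured 33.1, 31.8 and 41.1 in the sham libraries against 26.5, 25.6 and 23.8 in the OVX libraries. Both had all OVX libraries below the sham libraries, with log2 differences of -0.39 ± 0.14 and -0.46 ± 0.15 (limma adjusted p = 0.688 and 0.671). Plaur, the urokinase receptor, measured 312, 324 and 326 in the sham libraries against 425, 405 and 359 in the OVX libraries, where all OVX libraries were above (0.30 ± 0.13, limma adjusted p = 0.704).

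Heat shock and stress genes that tissue digestion is known to induce had 30 tested genes, with 12 above 0, 18 below and a median of -0.03, or -0.11 without OVX replicate 3. The OVX libraries lay wholly below sham for 10 of the 30 and wholly above for 2, where 7.6% and 7.54% of all genes did so. Mt1, a metal-binding metallothionein, measured 1571, 1714 and 1412 scaled TPM in the sham libraries against 918, 856 and 804 in the OVX libraries (log2 difference -0.86 ± 0.14, limma adjusted p = 0.281). Bag3, a cochaperone of HSP70, measured 25.7, 23.6 and 27.2 in the sham libraries against 20.02, 20.1 and 19.3 in the OVX libraries. Neither gene overlapped between groups. Hspa1a, an inducible HSP70 gene chosen after its values were seen, measured 41.6, 40.6 and 48.6 in the sham libraries against 46.1, 39.8 and 26.7 in the OVX libraries, with overlap and OVX replicate 3 lowest.

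**Figure D4:**
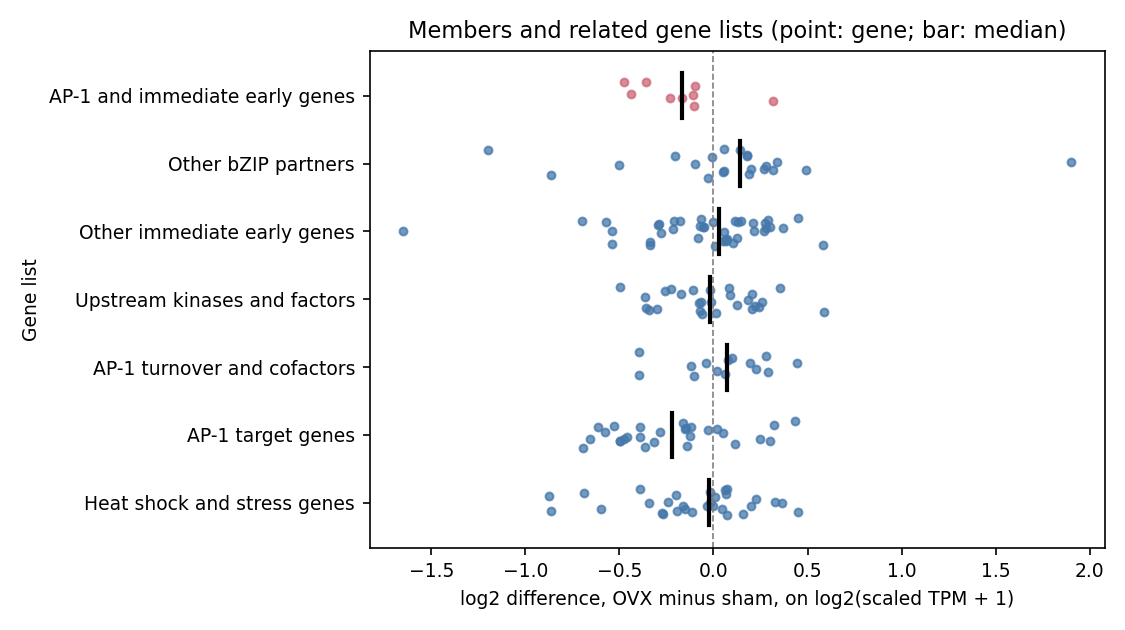
Log2 difference of each tested gene, OVX minus sham on log2(scaled TPM + 1), for the 9 members (red) and 6 lists of related genes (blue), with a bar at each median. The medians are -0.17 for the members, -0.22 for AP-1 target genes and between -0.03 and 0.14 for the other lists.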

How the data were processed

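TPM per transcript, for each of 6 libraries, came from the 1 table that the authors deposited. The submitters' processing notes name HISAT2 2.0.5 and featureCounts 1.5.0-p3, with mm10 as the build, and the step that gave TPM per transcript is not given in these sources. TPM keep no read counts, so depth is unknown and no counting interval is given. The deposited comparison columns (a mean level, fold changes and p-values) were not used.

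Listed TPM were summed per gene, so a gene's value can miss unlisted transcripts. They were scaled by an unweighted trimmed mean of M values (trimming 30% of M and 5% of A values from either end). The 8185 genes averaging 1 scaled TPM or more entered a two-sided limma fit (version 3.58.1, R 4.3.3) of group alone, on log2 values after a pseudocount of 1, using trended empirical Bayes and Benjamini-Hochberg adjustment. Changes of low genes are understated on this scale. With 3 libraries a side, the smallest p an exact permutation test allows is 0.1. The fit was tested on simulated data in which a gene's noise had the same size in every library. That test therefore did not cover a library that stands apart, as OVX replicate 3 does.

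The members and lists were chosen with earlier results of these data known. All members were named, with up to 4 genes per related list by smallest p, up to 4 per cell type by level, and 3 per likeness search. Alternatives covered scaling, pseudocount, filter, replicate block, library weights, trend, transcript choice, GC content and each library left out.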

Additional observations from a re-analysis of the deposited data

How the results depend on the processing

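Over 18 alternatives no member was called by limma, with a lowest adjusted p of 0.381, and 153 of 162 member values kept their direction. Egr1 stayed below 0 (-0.63 to -0.27) and Fosl2 above (0.16 to 0.41) under all of them. The members above 0 were 4 with library weights, 5 with the GC and length trend removed and 3 without OVX replicate 3, and those below 0 were 5 with weights and 4 with the trend removed. The direction turned with the trend removed for Atf3 (0.0205), Fos (0.0213), Ier2 (0.0234) and Jun (0.0089), and with weights for Fos (0.000654), Junb (0.0512) and Jund (0.0281). Leaving out each library gave -0.2095 to 0.0573 for Fos and -0.384 to 0.0397 for Junb, both turning without OVX replicate 3. The cause was not tested.

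Genes called higher were 1 in the reported fit, 0 with a pseudocount of 0.1, 0 without a filter, 22 with weights, 2 with the most abundant transcript, 2 with the GC trend removed and 0 to 9 with a library left out. Genes called lower were 7 with weights and 0 to 3 with a library left out. Of the related lists 1 gene, Mt1, was called with weights. On TPM as deposited the median of all genes was -0.15 and of the members -0.33, with 30.1% of all genes above 0 against 49.1%. At an unadjusted p of 0.05, 127 genes were then higher and 496 lower, against 296 and 277.

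The sources used here do not say whether libraries with the same replicate number were handled together. Correlations of same-numbered deviations were -0.06, -0.13 and -0.25, and those of differently numbered ones ran from -0.15 to 0.20. The deviations are centred within only 3 libraries per group, so these correlations cannot settle whether the samples were paired. With the replicate block 0 genes were called higher, and no member was called.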

Other observations

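The kinases and factors upstream of AP-1 had 27 tested genes, with 12 above 0 and 15 below and a median log2 difference of -0.02. Mapk14, the p38 alpha stress kinase, measured 1.74, 1.61 and 1.86 scaled TPM in the sham libraries against 2.46, 2.99 and 4.02 in the OVX libraries. Its groups did not overlap, and the log2 difference was 0.59 ± 0.19 (limma adjusted p = 0.671). Hras, a GTPase upstream of ERK, measured 17.7, 16.5 and 24.3 in the sham libraries against 19.0, 13.2 and 12.7 in the OVX libraries, with overlap.

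The AP-1 turnover and cofactor list had 14 tested genes, with 9 above 0 and 5 below and a median of 0.07. Trip6, a LIM domain protein reported to act as an AP-1 coactivator, measured 6.34, 6.05 and 6.87 scaled TPM in the sham libraries against 5.04, 4.15 and 4.75 in the OVX libraries. The groups did not overlap, and the log2 difference was -0.40 ± 0.15 (limma adjusted p = 0.688). Ncor1, a corepressor, measured 29.5, 26.9 and 23.0 in the sham libraries against 29.6, 30.2 and 38.1 in the OVX libraries, just without overlap (0.29 ± 0.17, limma adjusted p = 0.733).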
